A study of Mus musculus with 9 samples.

Results

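The subunits of NF-kB and the proteins that hold them in check were followed in naive CD4+ T cells, which are helper T cells that have not yet met antigen. The members were taken by gene symbol and are 10 of the 55487 genes in the deposited tables. The rule itself uses no measured value, but the members were chosen with earlier results of these data known. They are the 5 subunits Nfkb1, Nfkb2, Rel, Rela and Relb and the 5 inhibitors Nfkbia, Nfkbib, Nfkbie, Bcl3 and Tnfaip3. Each gene symbol was found in the tables under its own identifier, and all 10 passed the filter on low counts that left 13043 genes for testing. The cells came from lymph nodes of wild-type (WT) mice of the C57BL6/J strain. Their polyadenylated RNA gave 9 sequenced libraries, 3 in each of 3 groups. IL-1b-treated cells were cultured for 20 h with recombinant IL-1b, an inflammatory cytokine, at 10 ng/mL. Cultured cells were kept for the same 20 h without it, and fresh cells were taken without culture or treatment. The study set these groups side by side to learn how the cytokine, and culture itself, bear on the RNA of naive cells. The medium, the way the cells were purified and the number of mice are not stated in the labels.

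NF-kB is a family of dimeric transcription factors. In a resting cell the dimers are kept in the cytoplasm by IkB proteins, and a signal from a cytokine or antigen receptor activates the IkB kinase, which marks the IkB protein for destruction and lets the dimer enter the nucleus. Rela, Rel and Relb carry domains that switch genes on, whereas Nfkb1 and Nfkb2 encode precursors whose shortened products bind DNA and form dimers with them. Several of the inhibitors are themselves NF-kB targets, so their RNA is often read as a trace of recent NF-kB activity, and in T cells Rel and Rela serve the response to antigen.

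Library totals were 14864461 to 17822109 counts for IL-1b-treated cells, 15127242 to 15953917 for cultured cells and 13518818 to 23056660 for fresh cells. All 8 listed markers of naive CD4+ T cells were detected in each group, and Cd4 stood at 544 ± 12.1 CPM in IL-1b-treated, 590.0 ± 18.7 CPM in cultured and 888 ± 9.74 CPM in fresh cells (SD, n = 3 each). Levels are given as CPM, read counts relative to the library total after TMM scaling, or as TPM, which also corrects for transcript length and alone serves to compare genes with each other. In bulk RNA, fewer cells of a type and less RNA per cell cannot be told apart.

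Levels of the members spanned an order of magnitude. In fresh cells Nfkb1 averaged 175 TPM and Nfkbia, which encodes the IkB alpha that masks Rela-containing dimers, 173 TPM, and these did not separate, since the lowest Nfkb1 library, at 162 TPM, lay under the Nfkbia libraries of 168, 173 and 179 TPM. Rela followed at 110.5 TPM, then Bcl3 at 48.1, Nfkb2 at 42.2, Nfkbib at 38.2, Relb at 35.6, Tnfaip3 at 27.5, Nfkbie at 24.5 and Rel at 16.7 TPM. Neighbours in that order overlapped between Nfkb2 and Nfkbib, between Nfkbib and Relb, and between Tnfaip3 and Nfkbie. Nfkb1 lay above 96.4% of the 19967 genes with a TPM above 0 in fresh cells and Rel above 65.6%.

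The order differed in the cultures. In IL-1b-treated cells it ran Nfkbia (104 TPM), Nfkb1 (50.8), Rela (42.8), Nfkbib (22.3), Nfkb2 (13.8), Relb (12.5), Bcl3 (8.78), Tnfaip3 (7.92), Rel (7.50) and Nfkbie (6.25), with overlap between Nfkb2 and Relb and between Tnfaip3 and Rel. In cultured cells it ran Nfkbia (114 TPM), Nfkb1 (76.3), Rela (73.1), Nfkbib (28.7), Nfkb2 (18.9), Relb (18.6), Bcl3 (13.4), Rel (10.00), Tnfaip3 (9.82) and Nfkbie (9.78), with overlap between Nfkb1 and Rela, between Nfkb2 and Relb and among the last 3. Nfkbia thus stood clear of Nfkb1 in both cultures, and Bcl3 was at place 7 in both, against place 4 in fresh cells.

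The promoters show which members carry an NF-kB binding motif near their start. RefSeq (GRCm38.p6) windows of 300 bases around start sites were available for 8 members, with 11 windows between them, and were searched on both strands for the textbook kB consensus. It was found in 6 of the 8 genes, namely Nfkb2, Rel, Nfkbia, Nfkbie, Bcl3 and Tnfaip3, whereas 5.14% of the 27018 genes with windows of this length, and 4.51% of their 32841 windows, held it. A match is a stretch of letters and not a proven site, and the lack of one in the Rela and Nfkbib windows says only that these letters are not there. The match of Bcl3 lies at position 3, inside an exon, those of Nfkb2 also touch exons, and a second Tnfaip3 start has a window with no match, so these stretches are not shown. The sequences below run 5′ to 3′ along the gene up to its start, outside annotated exons, with the matches in capitals. Nfkbia is shown because it alone was called higher with IL-1b, Tnfaip3 and Nfkbie as inhibitors with matches outside exons and a log2 fold change beyond -1 in culture, Rel as the subunit with matches outside exons, and Nfkbib as the member with no match and no call.
Nfkbia, chr12:55492648-55492897, minus strand, 250 bases, match at position -29 from the start: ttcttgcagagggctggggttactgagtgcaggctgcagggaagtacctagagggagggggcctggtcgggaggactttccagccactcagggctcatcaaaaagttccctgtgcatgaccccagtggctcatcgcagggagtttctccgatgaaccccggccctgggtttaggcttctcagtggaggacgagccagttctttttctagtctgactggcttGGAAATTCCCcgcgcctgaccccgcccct
Tnfaip3, chr10:19015411-19015547, minus strand, 137 bases, matches at -125 and -12: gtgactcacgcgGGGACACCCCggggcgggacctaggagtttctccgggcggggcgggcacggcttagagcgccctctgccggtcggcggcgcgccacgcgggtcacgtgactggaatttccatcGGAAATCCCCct
Nfkbie, chr17:45555450-45555699, plus strand, 250 bases, match at -106: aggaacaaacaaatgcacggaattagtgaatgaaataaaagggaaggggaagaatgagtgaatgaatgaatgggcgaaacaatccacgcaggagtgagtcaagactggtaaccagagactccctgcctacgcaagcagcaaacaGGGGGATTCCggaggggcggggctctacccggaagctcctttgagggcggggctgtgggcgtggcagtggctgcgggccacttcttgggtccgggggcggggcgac
Rel, chr11:23770971-23771219, minus strand, 249 bases, overlapping matches at -92 and -91: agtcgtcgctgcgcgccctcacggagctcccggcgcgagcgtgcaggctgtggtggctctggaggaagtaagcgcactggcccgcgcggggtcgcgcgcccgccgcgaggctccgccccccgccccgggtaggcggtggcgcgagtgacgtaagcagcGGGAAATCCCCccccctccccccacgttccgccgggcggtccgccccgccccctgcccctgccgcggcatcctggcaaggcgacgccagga
Nfkbib, chr7:28766645-28766734, minus strand, 90 bases, no match: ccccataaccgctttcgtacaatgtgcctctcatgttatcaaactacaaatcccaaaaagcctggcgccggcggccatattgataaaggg

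Culture without cytokine was compared with fresh cells to show what 20 h outside the animal did to these genes. Of the 10 members, 9 fell and none rose by the quasi-likelihood test of edgeR, with p-values adjusted (Benjamini-Hochberg) over all 13043 genes and a threshold of 0.05. Over all tested genes 58.2% were called, 28.9% lower and 29.4% higher. The median log2 fold change of the members was -0.82, against 0.00 over all tested genes, with -0.71 for the 5 subunits and -1.12 for the 5 inhibitors. With the trend of counts on gene length and GC content removed, the members' median was -0.54, against 0.03 over all tested genes. For the same 9 members the 3 cultured libraries lay below the 3 fresh ones, a separation in that direction seen in 32.8% of tested genes and in either direction in 65.5%.

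**Figure D1:**
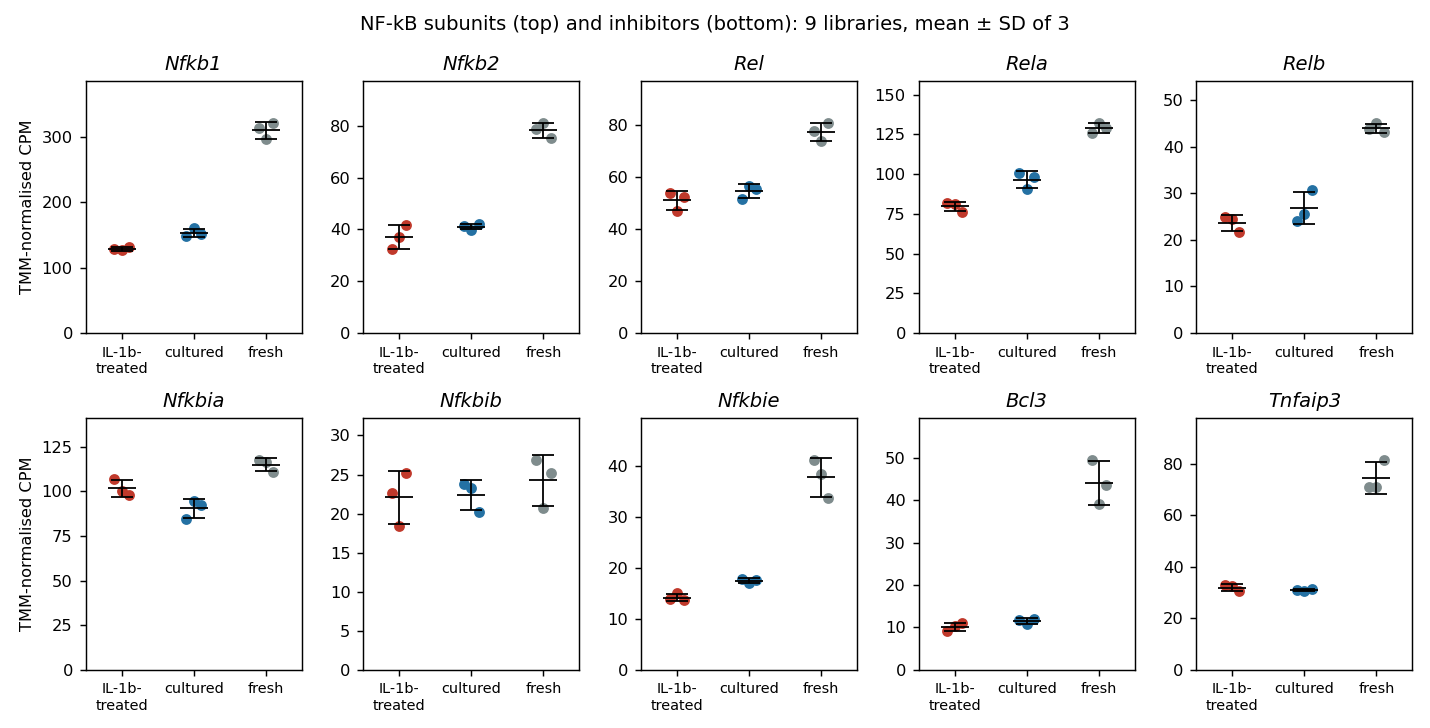
CPM after TMM scaling (y axis, each panel from 0) in the 3 libraries of IL-1b-treated, cultured and fresh cells (points), with the mean and SD of 3, for the 5 subunits (top) and the 5 inhibitors (bottom). Fresh libraries lie above the cultured ones in every panel but that of Nfkbib, and in the Bcl3 panel they lie between 39.1 and 49.6 CPM, against 10.7 to 12.1 CPM in cultured cells.

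Among the subunits Nfkb1 moved most. It lies at chr3:135584655-135691547 (mm10, minus strand) and had 148, 159.8 and 151 CPM in cultured libraries, against 313, 296 and 320.6 CPM in fresh ones. The groups were far apart, and the log2 fold change was -1.02 ± 0.04 (SE; adjusted p = 1.17e-15, edgeR). Nfkb2, whose product serves the noncanonical branch of the pathway (chr19:46304320-46312385, plus strand), had 41.3, 39.9 and 42.0 CPM in cultured libraries, against 78.6, 81.1 and 75.2 CPM in fresh ones, a change of -0.93 ± 0.08 (adjusted p = 3.47e-10). Its value carries a limit: 531 bases, or 11.58% of its exon sequence, overlap the oppositely transcribed noncoding gene AC114539.1, and 299 bases overlap Psd, also on the other strand. Its expected counts were not whole (within 0.005) in any library, so some reads were assigned only in part to it. The features that shared them were not traced.

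Relb, the partner of the shortened Nfkb2 product (chr7:19606217-19629438, minus strand), had 24.1, 25.7 and 30.7 CPM in cultured libraries, against 43.7, 45.1 and 43.2 CPM in fresh ones. Its log2 fold change was -0.71 ± 0.09 (adjusted p = 7.96e-07). Rel, the subunit most closely tied to lymphocyte activation (chr11:23736847-23770970, minus strand), had 51.6, 56.6 and 55.7 CPM in cultured libraries, against 77.9, 73.9 and 80.9 CPM in fresh ones, and fell by 0.51 ± 0.07 on the log2 scale (adjusted p = 6.54e-07). The smallest change among the subunits was that of Rela, the main activating subunit of the canonical dimer (chr19:5637483-5648130, plus strand). It had 100.9, 90.5 and 98.0 CPM in cultured libraries, against 126, 132 and 129 CPM in fresh ones, a change of -0.42 ± 0.05 (adjusted p = 2.51e-07). After the trend of each library's counts on gene length and GC content was removed, the change of Rela was -0.08 (adjusted p = 0.194), so its call rests on leaving that trend in.

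The inhibitors fell by unequal amounts. Bcl3, a nuclear IkB protein that binds the shortened Nfkb1 and Nfkb2 products on DNA (chr7:19808462-19822770, minus strand), had 11.8, 10.7 and 12.1 CPM in cultured libraries, against 49.6, 39.1 and 43.6 CPM in fresh ones. Its log2 fold change of -1.94 ± 0.11 (adjusted p = 8.41e-13) was the largest among the members, and 4.98% of tested genes had a larger change in size. Bcl3 and Relb lie 179.0 kb apart on chromosome 7. Tnfaip3, which encodes a ubiquitin-editing enzyme that shuts down signalling upstream of the IkB kinase (chr10:19000910-19015657, minus strand), had 31.0, 30.6 and 31.4 CPM in cultured libraries, against 71.1, 70.7 and 81.5 CPM in fresh ones. It changed by -1.26 ± 0.07 (adjusted p = 1.20e-12), and 9.94% of tested genes had a larger change.

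Nfkbie, the gene of IkB epsilon (chr17:45555703-45563169, plus strand), had 17.9, 17.0 and 17.5 CPM in cultured libraries, against 41.2, 38.4 and 33.7 CPM in fresh ones, a log2 fold change of -1.12 ± 0.10 (adjusted p = 1.65e-09). Nfkbia (chr12:55489410-55492647, minus strand) was the inhibitor with the smallest called change. It had 84.5, 94.5 and 92.2 CPM in cultured libraries, against 118, 116 and 111 CPM in fresh ones, or -0.35 ± 0.05 (adjusted p = 7.29e-06). Nfkbib, which encodes IkB beta (chr7:28758251-28767512, minus strand), had 23.8, 23.3 and 20.2 CPM in cultured libraries, against 26.9, 20.6 and 25.2 CPM in fresh ones. The groups overlapped and the change of -0.12 ± 0.12 was not called (adjusted p = 0.418). On the other strand 42 bases of Nfkbib exons are shared with Sirt2 and 314 bases, or 14.48%, with Ccer2, which had a mean of 0.477 counts in cultured and 0 in fresh libraries. The expected counts of Nfkbib were whole, within 0.005, in 7 of 9 libraries.

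RNA of other leukocytes moved in the same comparison. The summed level of 10 B cell markers was 4.53 to 5.66 TPM in cultured libraries, against 57.5 to 70.7 TPM in fresh ones, and 10 of 10 fell (median log2 fold change -4.08) with none at 0 counts. Of 8 macrophage, monocyte or dendritic cell markers 7 were tested, 5 fell and 1 rose (median log2 fold change -4.41). Cst3 made up most of their sum, and the other 7 summed to 1.26 to 2.94 TPM in cultured and 20.2 to 23.9 TPM in fresh libraries, against 82.3 to 87.9 TPM in cultured and 70.7 to 83.8 TPM in fresh libraries with Cst3. Of 6 neutrophil markers 3 were tested and all 3 fell. The sums were 0.12 to 0.40 TPM in cultured and 14.0 to 37.9 TPM in fresh libraries, and S100a8 and Retnlg were at 0 counts in cultured cells. These 3 passed the filter on low counts only through the fresh libraries, so a fall was the only outcome open to them. Whether the same holds for some of the scarce B cell and macrophage, monocyte or dendritic cell markers was not examined. Of 5 NK cell markers 3 were tested and 2 fell, with sums of 11.5 to 16.6 TPM in cultured and 20.3 to 25.1 TPM in fresh libraries. The 2 CD8 T cell markers rose, with sums of 41.2 to 50.1 TPM in cultured and 23.8 to 25.6 TPM in fresh libraries. The part of these cells in the changes of the members was not tested. The naive CD4+ T cell markers themselves summed to 3246 to 3264 TPM in cultured and 4282 to 4402 TPM in fresh libraries, with 6 of 8 lower and 2 higher. On log2(TPM + 1) the median change over all tested genes in this comparison was itself -0.19.

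IL-1b treatment was compared with culture alone to show the response of the pathway to the cytokine. Of the 10 members 4 were called, which were Nfkbia higher and Nfkb1, Rela and Nfkbie lower. That is close to the background, since 28.9% of all tested genes were called, 15.6% higher and 13.3% lower. The median log2 fold change was -0.16 for the members and -0.01 over all tested genes. Libraries of IL-1b-treated and cultured cells did not overlap for the same 4 members, against 40.3% of tested genes.

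**Figure D2:**
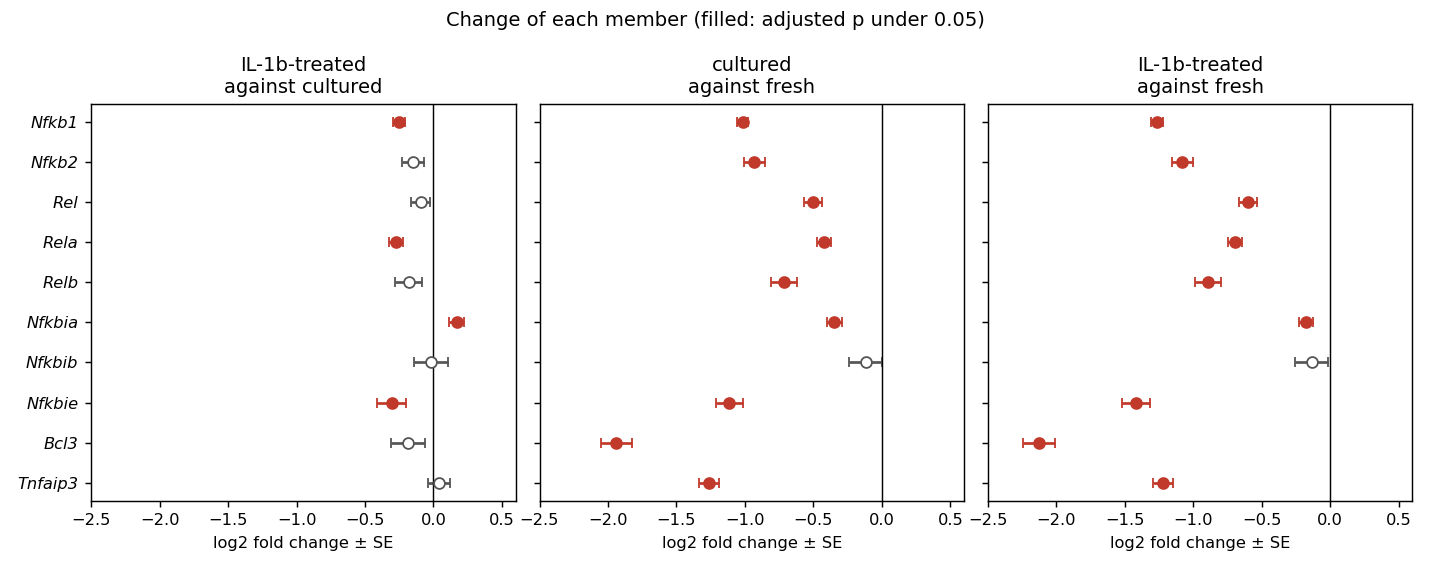
Log2 fold change with its standard error (x axis) for each member (y axis) in IL-1b-treated against cultured, cultured against fresh and IL-1b-treated against fresh cells, with filled points for an adjusted p under 0.05. Between IL-1b-treated and cultured cells the points lie between -0.31 and 0.17, and in both comparisons with fresh cells every point lies below 0, down to -2.13 for Bcl3.

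Nfkbia, the inhibitor best known for its return after NF-kB activation, was the member called higher. It had 107, 100.3 and 97.7 CPM in IL-1b-treated libraries, against 84.5, 94.5 and 92.2 CPM in cultured ones. The libraries did not overlap, and the log2 fold change was 0.17 ± 0.05 (adjusted p = 0.0213, edgeR). The call ended without IL-1b-treated replicate 1 (adjusted p = 0.0970) or without cultured replicate 1 (0.145), and on the TPM scale Nfkbia was lower in IL-1b-treated cells, at 104 ± 6.70 TPM against 114 ± 2.87 TPM in cultured cells (SD, n = 3 each). On that scale most genes shift down, with a median of -0.25 over all tested genes for log2(TPM + 1), against -0.14 for Nfkbia.

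The called subunits fell by small amounts. Nfkb1 had 128, 127 and 132 CPM in IL-1b-treated libraries, against 148, 159.8 and 151 CPM in cultured ones, a log2 fold change of -0.25 ± 0.04 (adjusted p = 0.000100). Rela had 81.7, 81.2 and 76.3 CPM in IL-1b-treated libraries, against 100.9, 90.5 and 98.0 CPM in cultured ones, a change of -0.27 ± 0.05 (adjusted p = 0.000377). Both groups of libraries were separate for both genes. With the trend on length and GC content removed Nfkb1 remained called at -0.14 (adjusted p = 0.0178), whereas Rela, also at -0.14, did not (0.0835).

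Nfkbie had 13.9, 15.0 and 13.6 CPM in IL-1b-treated libraries, against 17.9, 17.0 and 17.5 CPM in cultured ones. It changed by -0.31 ± 0.11 (adjusted p = 0.0351), but the call ended when any of 6 of the 9 libraries was left out (adjusted p up to 0.0995), those being IL-1b-treated replicates 1 and 3, all 3 cultured replicates and fresh replicate 2. It also ended, at -0.14 (adjusted p = 0.419), with the trend on length and GC content removed. The same held without the filter on low counts (0.0598), with limma-voom (0.0778) and with only the 2 groups compared (0.0549).

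The other members did not pass the test. Nfkb2 had 32.5, 37.2 and 41.6 CPM in IL-1b-treated libraries, against 41.3, 39.9 and 42.0 CPM in cultured ones, with a log2 fold change of -0.15 ± 0.08 (adjusted p = 0.181). Without IL-1b-treated replicate 3, its highest, the change was -0.24 and was called (0.0359). Rel had 53.9, 46.9 and 52.5 CPM in IL-1b-treated libraries, against 51.6, 56.6 and 55.7 CPM in cultured ones (-0.09 ± 0.07, adjusted p = 0.334). Relb had 25.0, 24.4 and 21.7 CPM in IL-1b-treated libraries, against 24.1, 25.7 and 30.7 CPM in cultured ones (-0.18 ± 0.10, adjusted p = 0.188). The groups overlapped for each of these subunits.

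Among the inhibitors Tnfaip3 had 32.8, 32.5 and 30.4 CPM in IL-1b-treated libraries, against 31.0, 30.6 and 31.4 CPM in cultured ones, a log2 fold change of 0.04 ± 0.08 (adjusted p = 0.753). Bcl3 had 9.07, 10.4 and 10.9 CPM in IL-1b-treated libraries, against 11.8, 10.7 and 12.1 CPM in cultured ones (-0.19 ± 0.13, adjusted p = 0.295). Nfkbib had 22.7, 18.4 and 25.1 CPM in IL-1b-treated libraries, against 23.8, 23.3 and 20.2 CPM in cultured ones (-0.02 ± 0.12, adjusted p = 0.935). The libraries of all 3 overlapped between the groups. Il1r1, the signalling receptor for IL-1b, had 0 counts in all 9 libraries, where 3 counts would be 0.130 to 0.222 CPM, so any level under that limit was not detectable. Il1rap, its partner chain, had 17.2, 18.1 and 15.6 CPM in IL-1b-treated libraries, against 14.4, 18.7 and 14.8 CPM in cultured ones, with no call (0.09 ± 0.13, adjusted p = 0.687). Of the B cell markers 1 of 10 fell, with sums of 4.94 to 7.42 TPM in IL-1b-treated and 4.53 to 5.66 TPM in cultured libraries. Of the macrophage, monocyte or dendritic cell markers 1 of 7 rose, with sums of 89.7 to 101 TPM in IL-1b-treated and 82.3 to 87.9 TPM in cultured libraries and Tyrobp at 0 counts in IL-1b-treated cells. None of the tested neutrophil, NK and CD8 T cell markers was called. Of the 8 naive CD4+ T cell markers 5 were lower and 3 higher with TMM. They summed to 2657 to 2683 TPM in IL-1b-treated and 3246 to 3264 TPM in cultured libraries. On log2(TPM + 1) the median change over all tested genes in this comparison was itself -0.25.

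IL-1b-treated cells were also set against fresh cells, so that this comparison shares its libraries with the others. All 9 called members were lower, while 65.5% of tested genes were called, 32.6% lower and 32.9% higher. The median log2 fold change was -0.99 for the members, against -0.01 over all tested genes. With the trend on length and GC content removed it was -0.49 for the members, against 0.07 over all tested genes, and 8 members were called. Bcl3 had -2.13 ± 0.11 (adjusted p = 1.41e-13), Nfkbie -1.42 ± 0.10 (2.46e-11), Nfkb1 -1.27 ± 0.04 (1.53e-17), Tnfaip3 -1.22 ± 0.07 (1.40e-12) and Nfkb2 -1.08 ± 0.08 (2.09e-11). The changes of Relb, Rela and Rel were -0.89 ± 0.10 (2.18e-08), -0.69 ± 0.05 (5.46e-11) and -0.60 ± 0.07 (3.77e-08). For Nfkbia the change was -0.18 ± 0.05 (adjusted p = 0.00567), and -0.11 (0.104) with the trend on length and GC content removed. Nfkbib again was not called (-0.14 ± 0.12, adjusted p = 0.331). B cell markers, 10 of 10 of them lower, summed to 4.94 to 7.42 TPM in IL-1b-treated and 57.5 to 70.7 TPM in fresh libraries. Of the macrophage, monocyte or dendritic cell markers 5 of 7 fell and 1 rose (median -3.98), all 3 tested neutrophil markers fell (sums of 0 to 2.22 TPM in IL-1b-treated and 14.0 to 37.9 TPM in fresh libraries, with Csf3r, Retnlg and Cxcr2 at 0 counts in IL-1b-treated cells), 2 of 3 NK cell markers fell and both CD8 T cell markers rose. Here too the tested neutrophil markers passed the filter on low counts only through the fresh libraries, so their fall was fixed in advance. The part of these cells in the changes of the members was not tested. The naive CD4+ T cell markers summed to 2657 to 2683 TPM in IL-1b-treated and 4282 to 4402 TPM in fresh libraries. On log2(TPM + 1) the median change over all tested genes in this comparison was itself -0.45. With TMM 5 of the 8 markers were lower and 2 higher.

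How the subunits share their total does not depend on the scaling of libraries. The shares do depend on effective lengths, by which RSEM turns counts into TPM. That of Rela averaged 1984 bases in IL-1b-treated, 1754 bases in cultured and 1823 bases in fresh cells. The summed level of the subunits in TPM also depends on the scaling. On log2(TPM + 1) the median change over all tested genes was -0.25 in IL-1b-treated against cultured cells. It was -0.19 in cultured and -0.45 in IL-1b-treated against fresh cells. The summed level of the subunits was 127 ± 1.04 TPM in IL-1b-treated, 197 ± 5.30 TPM in cultured and 380.1 ± 15.2 TPM in fresh cells (SD, n = 3 each). Nfkb1 made up 39.9 ± 1.58% of it in IL-1b-treated cells, 38.8 ± 2.09% in cultured cells and 46.0 ± 1.41% in fresh cells, so its share was lower in both cultures than in fresh cells. Rela made up 33.6 ± 2.33% in IL-1b-treated cells, 37.1 ± 2.49% in cultured cells and 29.1 ± 0.433% in fresh cells. Rel, the least abundant, made up 5.88 ± 0.387% in IL-1b-treated cells, 5.08 ± 0.376% in cultured cells and 4.39 ± 0.0334% in fresh cells. The share of Relb stayed between 9.39 and 9.81% on average in the 3 groups.

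**Figure D3:**
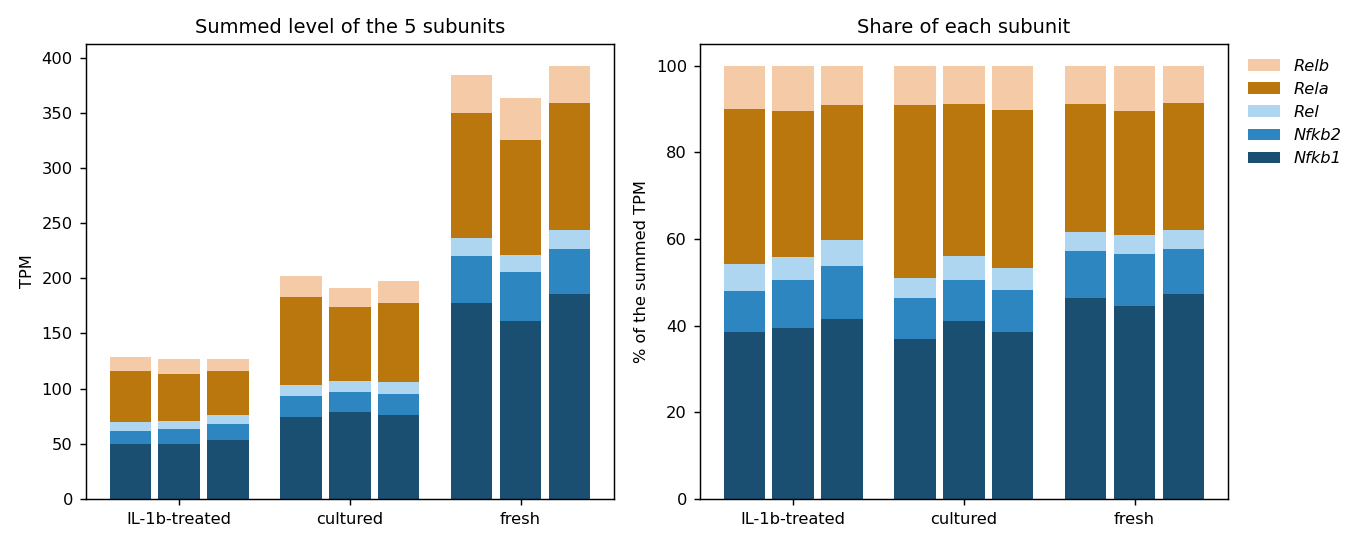
Summed TPM of the 5 subunits (left, y axis from 0) and the percentage each subunit contributed (right), as stacked bars for each of the 9 libraries grouped by condition. The total averaged 127 TPM in IL-1b-treated, 197 TPM in cultured and 380.1 TPM in fresh cells, and Nfkb1 and Rela together made up most of each bar. The median change of all tested genes on log2(TPM + 1) was -0.25 in IL-1b-treated against cultured and -0.19 in cultured against fresh cells.

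Set against Rela within each library, 3 inhibitors were lower in cultured than in fresh cells, and for Nfkbia and Nfkbib those groups overlapped. The ratio of Nfkbia to Rela in TPM was 2.40, 2.30 and 2.57 in IL-1b-treated libraries, 1.41, 1.67 and 1.64 in cultured libraries and 1.53, 1.72 and 1.46 in fresh libraries. IL-1b-treated libraries stood above both other groups, which overlapped. The log2 difference of 0.63 between IL-1b-treated and cultured cells was 0.44 when computed from expected counts. The effective length of Rela, by which RSEM turns counts into TPM, averaged 1984 bases in IL-1b-treated, 1754 bases in cultured and 1823 bases in fresh cells.

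For Tnfaip3 the ratio to Rela was 0.185 ± 0.00977 in IL-1b-treated cells, 0.135 ± 0.0148 in cultured cells and 0.248 ± 0.0213 in fresh cells, and no pair of groups overlapped. Its log2 difference between IL-1b-treated and cultured cells was 0.31 from expected counts, against 0.46 from TPM. The ratio for Bcl3 was 0.205 ± 0.0135 in IL-1b-treated cells, 0.183 ± 0.0201 in cultured cells and 0.436 ± 0.0196 in fresh cells. For Nfkbie it was 0.146 ± 0.0129 in IL-1b-treated cells, 0.135 ± 0.0131 in cultured cells and 0.222 ± 0.0277 in fresh cells. Both overlapped between IL-1b-treated and cultured cells and lay below the fresh libraries. Between cultured and fresh cells the log2 difference for Bcl3 was -1.51 from expected counts, against -1.25 from TPM. For Nfkbib the ratio was 0.525 ± 0.109 in IL-1b-treated cells, 0.394 ± 0.0425 in cultured cells and 0.344 ± 0.0431 in fresh cells, with overlap between cultured and fresh. From expected counts the Nfkbib ratio also overlapped between IL-1b-treated and cultured cells, where its log2 difference was 0.25, against 0.40 from TPM. Where the TPM ratios did not overlap, the exact 2-sided permutation test gave p = 0.1, the smallest that 3 against 3 libraries allow, or 0.136 after Benjamini-Hochberg adjustment over the 15 ratio comparisons, so none can pass a threshold of 0.05.

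**Figure D4:**
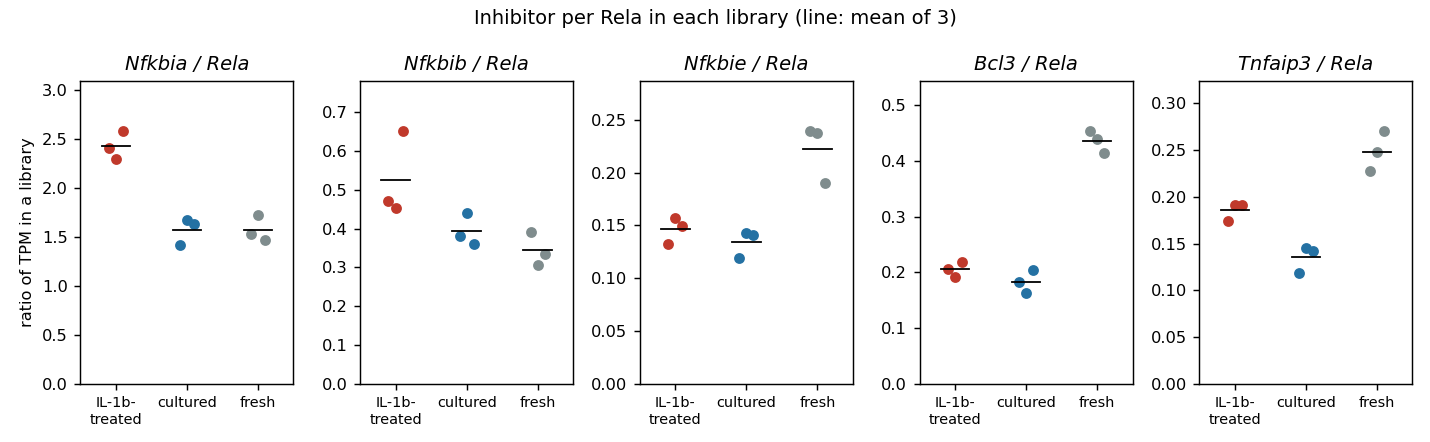
Ratio of each inhibitor's TPM to that of Rela (y axis, each panel from 0) in the 3 libraries of IL-1b-treated, cultured and fresh cells, with the mean of 3 as a line. Nfkbia to Rela averaged 2.42 in IL-1b-treated cells, against 1.57 in both cultured and fresh cells, while the ratios for Bcl3, Nfkbie and Tnfaip3 were highest in fresh cells.

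The genes that feed into NF-kB were read from lists made from general knowledge, with earlier results of these data known. Of 11 genes of the IkB kinase complex and its kinases, 6 fell and 2 rose in cultured against fresh cells (median log2 fold change -0.13), and 4 fell and none rose in IL-1b-treated against cultured cells (-0.12). Over all tested genes 58.2% were called in culture and 28.9% with IL-1b, and no list below was tested against those shares. The count that fell ranged over 21 alternatives between 3 and 8 in culture and between 1 and 9 with IL-1b. Map3k14, the kinase of the noncanonical branch, averaged 66.5 ± 3.30 CPM in cultured and 122 ± 4.56 CPM in fresh cells (-0.88 ± 0.06, adjusted p = 4.38e-12), and 52.5 ± 2.03 CPM in IL-1b-treated cells (-0.34 ± 0.06 against cultured, 0.000115). Ikbkb, the catalytic subunit that acts on IkB alpha, averaged 307 ± 12.3 CPM in IL-1b-treated, 373 ± 4.97 CPM in cultured and 419.9 ± 14.0 CPM in fresh cells. Both its changes passed the test (-0.28, adjusted p = 1.87e-06, with IL-1b and -0.17, 0.000201, in culture). Ikbkg, the regulatory subunit, rose by 0.29 in culture and Tbk1, a related kinase, by 0.31.

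Of 9 ubiquitin ligases of the pathway 5 fell and 1 rose in culture, and 4 fell and 1 rose with IL-1b, where 2 to 7 fell over the alternatives, beside 58.2% and 28.9% of all genes called. Traf3, which keeps Map3k14 low, changed by -0.75 in culture and by -0.30 with IL-1b, and Rbck1, of the linear ubiquitin ligase, by -0.45 in culture and by -0.17 with IL-1b. Traf6, the ligase used by the IL-1 receptor, rose by 0.32 in culture, and Birc2, a ligase of the TNF receptor complex, by 0.26 with IL-1b, though on log2(TPM + 1) their changes were -0.027 and -0.084. Of 6 genes on the route from the antigen receptor 4 fell and 2 rose in culture, and 3 fell and none rose with IL-1b, where 0 to 6 fell over the alternatives. Carmil2, which acts in Cd28 costimulation, averaged 141 ± 5.05 CPM in IL-1b-treated, 169 ± 2.12 CPM in cultured and 355 ± 19.6 CPM in fresh cells, with changes of -1.07 ± 0.04 in culture (adjusted p = 5.85e-16) and -0.26 ± 0.04 with IL-1b (6.39e-05), whereas Casp8 and Prkcq rose by 0.74 and 0.11 in culture.

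Of 6 further IkB proteins and IkB-binding factors 2 fell and 2 rose in culture, and 1 rose with IL-1b, with 0 to 2 higher in culture over the alternatives and 0 to 1 with IL-1b. Nfkbid, a nuclear IkB protein like Bcl3, averaged 8.87 ± 1.75 CPM in cultured and 34.3 ± 1.19 CPM in fresh cells (-1.95 ± 0.13, adjusted p = 2.13e-11), and Nfkbil1 changed by -0.89. Nfkbiz, the nuclear IkB protein induced by the IL-1 receptor in other cell types, rose by 0.19 in culture (adjusted p = 0.0100) and had 88.4 ± 5.06 CPM in IL-1b-treated and 93.6 ± 3.71 CPM in cultured cells, with no call (adjusted p = 0.334). Commd1 rose in both comparisons, by 0.51 in culture and 0.46 with IL-1b, but its call with IL-1b ended on log2(TPM + 1) (0.18, adjusted p = 0.417) and with the trend on length and GC content removed (0.24, 0.208).

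Among 10 tested partners of Tnfaip3 and deubiquitinases 3 fell and 3 rose in culture, and 1 fell and 2 rose with IL-1b, shares close to the 58.2% and 28.9% of all genes. With IL-1b the alternatives gave 0 to 6 lower and 0 to 3 higher. Tnip1, an adaptor that binds the Tnfaip3 protein, changed by -0.82 and Zc3h12a, an RNase that acts on inflammatory messages, by -0.60 in culture. Tax1bp1, another adaptor of it, averaged 393 ± 14.7 CPM in cultured and 201 ± 7.51 CPM in fresh cells (0.97 ± 0.04, adjusted p = 2.38e-15) and rose by a further 0.22 with IL-1b. Itch, a ligase that works with Tnfaip3, rose by 0.51 in culture. With IL-1b, Otulin rose by 0.25 with overlapping libraries and N4bp1 changed by -0.29. The Otulin change was 0.13 (adjusted p = 0.258) with library size alone and -0.048 (0.780) on log2(TPM + 1).

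Of 24 listed NF-kB target genes 19 were tested, and 13 fell and 4 rose in culture, with a median log2 fold change of -0.84 against 0.00 over all tested genes. With only genes of at least 10 CPM in 3 libraries tested, 6 fell, whereas 4 to 5 rose under each of the 21 alternatives. Several of the 13 were scarce, such as Cd40 at 0.971 CPM, Ccl5 at 2.12 CPM and Cd83 at 2.39 CPM in fresh cells, named after their values were seen. The median of -0.84 includes these scarce genes. In cultured cells Cd40, Ccl5 and Egr2 averaged 0.0217, 0.294 and 0.255 CPM. They passed the filter on low counts only through the fresh libraries, so a fall was the only outcome open to them. Junb, an AP-1 subunit, averaged 55.8 ± 4.15 CPM in cultured and 401 ± 29.3 CPM in fresh cells (-2.85 ± 0.06, adjusted p = 1.89e-20), and Zfp36, an RNA decay factor, 91.8 ± 6.84 CPM in cultured and 310.0 ± 14.4 CPM in fresh cells (-1.76 ± 0.05, 3.07e-18). Il2ra, the alpha chain of the IL-2 receptor, went the other way, with 40.7 ± 1.57 CPM in cultured and 1.65 ± 0.570 CPM in fresh cells (4.62 ± 0.15, adjusted p = 3.64e-17), as did Lta, a TNF family cytokine, with 46.3 ± 2.38 CPM in cultured and 18.6 ± 1.66 CPM in fresh cells (1.32 ± 0.09, 6.66e-12). With IL-1b 3 of the 19 rose and 2 fell (median 0.11), whereas none rose with library size alone and 0 rose and 8 fell on log2(TPM + 1). Ltb and Irf1 each rose by 0.16 with TMM, but by 0.040 (adjusted p = 0.498) and 0.048 (0.403), with no call, under library size alone, and on log2(TPM + 1) they fell by 0.16 and 0.17. Traf1 and Zfp36 changed by -0.17 and -0.21. Several of these genes respond to other pathways as well, and Il2ra and Junb are not markers of NF-kB alone. The part of other leukocytes in the changes of this list in culture was not tested.

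Some of the calls named from these lists depended on the processing. With the trend on length and GC content removed, the changes with IL-1b of Map3k14, N4bp1, Zfp36, Rbck1, Carmil2 and Traf3 lay between -0.12 and -0.042 and were not called (adjusted p of 0.184 to 0.643), nor were those in culture of Ikbkb (-0.022, 0.607), Commd1 (0.13, 0.450) and Zc3h12a (-0.26, 0.0880). On log2(TPM + 1) the rises in culture of Ikbkg, Nfkbiz, Prkcq and Traf6, and that of Tax1bp1 with IL-1b, turned negative. On the same scale the rises in culture of Tbk1 (0.15, adjusted p = 0.106, limma) and Commd1 (0.39, 0.0651) were not called. Leaving out a single library ended the call with IL-1b of Otulin (IL-1b-treated replicate 2 or 3, cultured replicate 1 or 3), of Ltb (IL-1b-treated replicate 3, adjusted p = 0.0533) and of Zfp36 (cultured replicate 1, 0.0603), and that of Nfkbiz in culture (cultured replicate 3, 0.0541, or fresh replicate 2, 0.0830).

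The genes whose pattern over the 9 libraries was most like that of a member were sought among 11598 genes, by the root mean square difference of log2(TPM + 0.5) after centring each gene. Rel and Cry2, a circadian clock gene, differed by 0.0253, with Cry2 at 5.69 TPM in IL-1b-treated, 7.68 TPM in cultured and 12.7 TPM in fresh cells. Tnfaip3 and Agpat1 differed by 0.0356 and Nfkb1 and Sesn3 by 0.0427. The nearest gene was Pik3cg for Nfkbia (0.0576), Man2b1 for Rela (0.0658), Tap1 for Nfkb2 (0.0672), Stat3 for Nfkbie (0.0737), Clcf1 for Nfkbib (0.0919) and Rara for Bcl3 (0.122). The runners-up were Flt3l for Tnfaip3, Hcfc1 for Nfkb1, Il2rg for Nfkbia, Tmem143 for Relb, Mia3 for Rela, Tgfbr2 for Nfkb2, Bicdl1 for Nfkbie, Tpp1 for Nfkbib and Cdh24 for Bcl3. Among the members themselves the closest pairs were Nfkb1 with Nfkb2 (0.127) and Nfkb1 with Nfkbie (0.128). A likeness over 9 libraries in 3 groups mostly reflects the 3 group means.

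**Figure D5:**
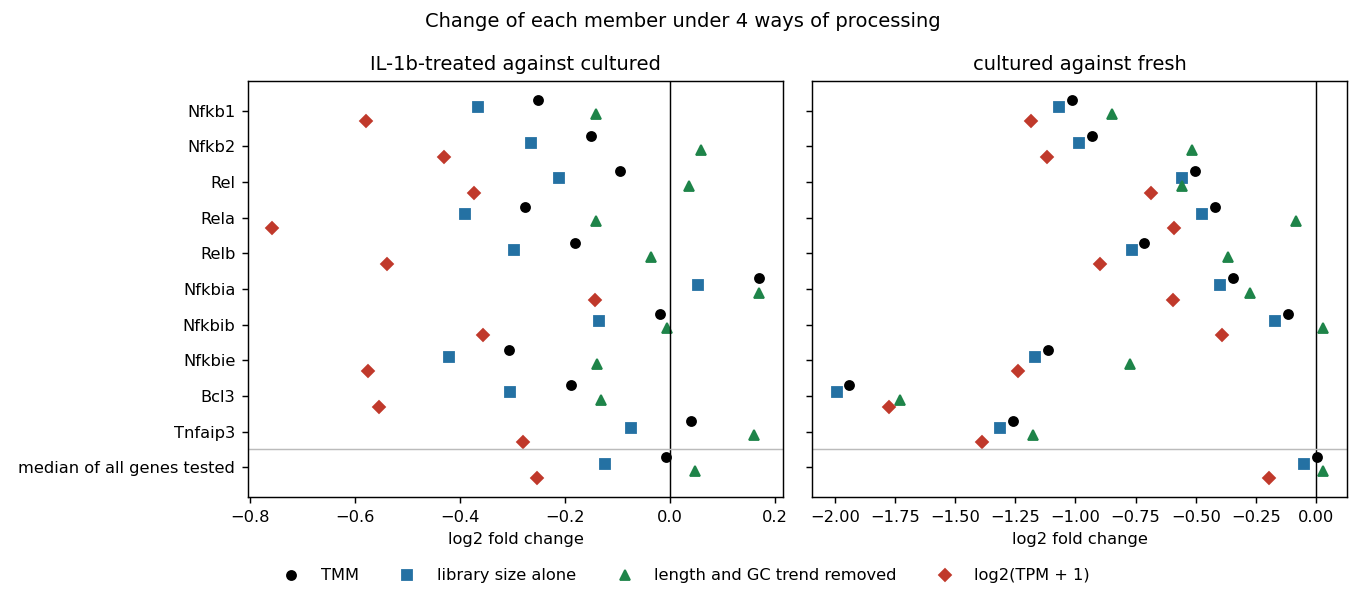
Log2 fold change (x axis) of each member and the median of all tested genes (y axis) under TMM scaling, under scaling by library size alone, with the trend on length and GC content removed, and on log2(TPM + 1), for IL-1b-treated against cultured and cultured against fresh cells. Between IL-1b-treated and cultured cells Nfkbia is at 0.17 with TMM and -0.14 on log2(TPM + 1), where the median of all genes lies at -0.25, whereas in culture the changes of Bcl3, Tnfaip3, Nfkbie and Nfkb1 lie below -0.7 under all 4. The change of Rela in culture is -0.42 with TMM and -0.08 with the trend removed.

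The choice of scale changed how many members were called. With log2(TPM + 1) 7 members were called in IL-1b-treated against cultured cells, all lower, and the median over all tested genes moved to -0.25, with 289 genes higher and 4452 lower, against 2037 and 1731 in the fit with TMM. With the trend on length and GC content removed 2 members were called, the median over all genes was 0.05, and 2069 genes were higher and 524 lower. In cultured against fresh cells the same settings called 10 and 8 members, and log2(TPM + 1) gave 1877 genes higher and 4842 lower, against 3829 and 3765 with TMM.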

How the data were processed

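Polyadenylated RNA was made into strand-preserving libraries (NEBNext Ultra II Directional kit, per the labels' protocols). STAR and RSEM on the mm10 build made the tables, per the submitters' processing notes, which give no versions or strand setting. The deposited tables hold RSEM expected counts, not normalised, per the file headers. They also hold TPM, which the authors' RSEM run scales by effective length and to a fixed total per library, and FPKM, deposited alike and not used here. Effective lengths in bases are those deposited. No label says that replicates are separate animals or cultures, and p-values therefore measure the spread between these libraries, which may be technical.

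Expected counts were rounded, and 55141 of 55487 identifiers (99.38%) matched a GENCODE M21 symbol (GRCm38, the same as mm10). R 4.3.3 with edgeR 4.0.16 tested 13043 genes (filterByExpr, TMM, quasi-likelihood F test, 1 fit over 9 libraries with group as the only term, Benjamini-Hochberg over all genes, threshold 0.05); SE is the log2 fold change over the root of F. Totals of 13518818 to 23056660 counts limit the precision, and 3 counts equal 0.130 to 0.222 CPM (counting error only). Alternatives used DESeq2 1.42.0, limma 3.58.1 (voom, and TPM on a log scale) and mgcv 1.9.3 for trends on length and GC content. Tables and figures were made with numpy 2.4.6, matplotlib 3.10.9 and pandas 2.3.3 under Python 3.11.15. Scripts were tested on simulated data. The text names all members, Il1r1 and Il1rap, and up to 2 called genes of smallest adjusted p per list, direction and comparison, and the 2 genes most like each member; some genes the rule picks are not reported here. Members and lists were chosen with earlier results of these data known.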

Additional observations from a re-analysis of the deposited data

How the results depend on the processing

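Over 21 alternatives (other scalings, filters and tools, TPM scales, trend removal, 2 groups alone, a replicate block, each library left out), 585 of 630 member results kept their direction and side of the threshold, 17 became called, 16 lost the call and 12 changed sign. Members called numbered 2 to 7 for IL-1b-treated against cultured, and 8 to 10 in each comparison with fresh cells. For IL-1b-treated against cultured, 7 members were called on log2(TPM + 1), 7 on log2(TPM + 0.1) and 2 with the length and GC trend removed, and 2 to 4 with a library left out (2 without IL-1b-treated replicate 1 or cultured replicate 1). On log2(TPM + 1) and log2(TPM + 0.1), where the median over all genes falls, these changes turned negative, with the cause not tested beyond that shift: IL-1b-treated against cultured, Nfkbia (-0.14 in both), Tnfaip3 (-0.28 and -0.31), Il1rap (-0.21 and -0.25), Birc2 (-0.084 and -0.086), Irf1 (-0.17 in both), Ltb (-0.16 in both), Otulin (-0.048 and -0.049) and Tax1bp1 (-0.11 in both), and cultured against fresh, Ikbkg (-0.088 and -0.090), Nfkbiz (-0.035 in both), Prkcq (-0.074 in both) and Traf6 (-0.027 and -0.028). Changes without a call in TMM also turned with the trend removed (Nfkb2 0.059 and Rel 0.036 with IL-1b against cultured, Nfkbib 0.029 in culture and 0.024 with IL-1b against fresh), with library size alone (Tnfaip3 -0.074 and Il1rap -0.027, IL-1b against cultured), and for Nfkbib, IL-1b against cultured, with a library left out (-0.12 to 0.094). Scaling by library size alone gave 1192 genes higher and 3270 lower with IL-1b against cultured (median -0.12) and called 6 members, adding Nfkb2, Rel and Relb and losing Nfkbia. IL-1b-treated against fresh cells had 4287 genes higher and 4252 lower with TMM, 3409 and 5277 with library size alone, and 1527 and 7113 on log2(TPM + 1).

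Deviations of same-numbered libraries correlated at -0.022 to 0.019 over 9 pairs across genes, and those of differently numbered libraries at -0.051 to 0.033. Whether libraries of the same number share an animal or a preparation was not tested. With the replicate number as a block 4, 9 and 9 members were called in IL-1b-treated against cultured, cultured against fresh and IL-1b-treated against fresh cells, as without it, and 3652, 7485 and 8454 genes. At these depths a gene under 3 counts in a library is not detectable.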
